A study of Mus musculus with 47 samples.

Results

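Untreated microglia that carried human APOE3 in place of mouse Apoe (E3) were compared with untreated wild-type (WT) microglia to ask how cells with the human gene differ from cells with the mouse gene before any challenge. It took in 9 of the 47 libraries of the study, 4 of E3 and 5 of WT, which were chosen by genotype and treatment alone. The libraries held polyadenylated RNA of primary microglia from the mouse forebrain, kept for 24 h without a challenge and amplified with a low-input kit. E3 cells came from C57BL/6 mice of Taconic model 1548, in which both copies of Apoe had been humanized to APOE ε3. WT cells came from C57BL/6 mice of the Jackson Laboratory, model 000664. Both were cultured in DMEM with 10% serum. Also used, for placing the values, were both genotypes after myelin (4 E3 and 5 WT libraries) and untreated cells with human APOE4 (E4, Taconic model 1549, 5 libraries) or without Apoe (KO, Jackson Laboratory model 002052, 5 libraries). Genotype and breeding source of E3 and WT thus divide the libraries in the same way and cannot be told apart in any difference below. The labels do not say whether replicates were separate animals or cultures, so p-values speak only to how these libraries vary, and that variation could be technical.

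Microglia are the resident macrophages of the brain. They sense microbes and tissue damage through Toll-like, Fc and complement receptors, engulf debris, break it down in lysosomes and return its cholesterol to other cells on lipoproteins. Apolipoprotein E is the main protein of the lipoproteins made in the brain: it takes up lipid exported by ABC transporters and is taken up by cells through lipoprotein receptors. The human form APOE3 is the common one and serves as the neutral reference for the Alzheimer disease risk of other forms.

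Levels are in scaled TPM, TPM being a share of all transcripts corrected for their length, brought to a common total of nuclear protein-coding genes and then to a common trimmed mean. A log2 difference is E3 minus WT on the log2(scaled TPM + 1) scale, which understates the change of low genes, and is given ± its standard error. Levels written as mean ± SD are over 4 E3 and 5 WT libraries. A gene is said to rise or fall where limma gave an adjusted p under 0.05. Read depth is unknown in TPM. The non-coding RNA gene Gm23935 took 80.9% to 87.0% of all TPM in E3 libraries and 69.4% to 76.7% in WT libraries. Nuclear protein-coding genes were left with 13.6 ± 2.33% in E3 libraries and 23.2 ± 2.54% in WT libraries (SD, n = 4 and 5), a difference of -9.54 percentage points (two-sided exact permutation p = 0.0159, the smallest 4 against 5 libraries allow); its part in the gene differences was not tested. After rescaling, libraries of a group correlated at 0.988 to 0.990 within E3 and at 0.979 to 0.991 within WT, and at 0.889 to 0.937 between E3 and WT, as Pearson coefficients across genes on the log2 scale.

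Mouse Apoe (ENSMUSG00000002985.16), at chr7:19696109-19699188 in mm10, was nearly absent from E3 cells. It had 87.0, 113, 109 and 105 scaled TPM in E3 libraries, against 58194, 66286, 62333, 47219 and 60439 in WT libraries. No E3 library came near the lowest WT library, and the log2 difference was -9.14 ± 0.10 (two-sided exact permutation p = 0.0159, the smallest possible). Reads of human APOE need not be counted under the mouse gene, so nothing is said here of how much human APOE the E3 cells made. No other of the 9677 genes tested had as large a difference in either direction.

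The genes next to Apoe on chromosome 7 differed as well, some down and some up. Apoc2 encodes the cofactor of lipoprotein lipase and lies in the same gene cluster; it had 7.16, 7.30, 7.26 and 6.25 scaled TPM in E3 libraries, against 150.3, 162, 210.1, 181 and 194 in WT libraries, so that every E3 library was far below every WT library (-4.49 ± 0.10, limma adjusted p = 7.2e-12). Apoc1, a small apolipoprotein of the cluster, fell by less (-1.82 ± 0.10), with 27.4 ± 3.26 scaled TPM in E3 and 99.1 ± 11.0 in WT libraries (SD, n = 4 and 5). Tomm40, the import pore of the outer mitochondrial membrane and the gene adjoining Apoe, rose by 1.28 ± 0.25, with 65.9 ± 17.5 scaled TPM in E3 and 27.8 ± 12.5 in WT libraries. Nectin2, an adhesion molecule encoded beyond Tomm40, had 49.8 ± 3.27 scaled TPM in E3 and 51.4 ± 3.52 in WT libraries and did not pass the test (-0.044 ± 0.076, limma adjusted p = 0.634). Pvr, the poliovirus receptor, fell (-1.15 ± 0.078), and Clasrp and Ppp1r37 rose by 1.14 ± 0.21 and 1.07 ± 0.18.

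Of 48 genes listed from the region around Apoe, 31 passed the filter on low values. Of these, 14 rose, 12 fell and 5 did not pass, against 24.2% rising and 38% falling among all genes tested. The median log2 difference was 0.12, and it turned to -0.25, with 9 rising and 17 falling, once each library had been corrected for the GC content and length of transcripts, a step added after the data were seen. Differences of at least 2-fold were denser close to Apoe: within 5 Mb they were found in 28.8% of 59 tested genes. The share was 9.24% of 487 on chromosome 7 beyond 20 Mb and 9.21% of 8962 on other chromosomes. Within 10 Mb it was 16.5% of 133 and within 20 Mb 16.2% of 228. These windows are nested and count Apoe, so the wider ones hold the genes within 5 Mb. Genes passing the test at any size were 71.2% within 5 Mb, 60.9% within 10 Mb and 62.5% on other chromosomes. The 2-fold differences ran both ways, with 10 higher and 7 lower within 5 Mb and 14 and 8 within 10 Mb, so few lay between 5 and 10 Mb. Besides the Apoc genes they included C5ar1, the receptor of the complement fragment C5a (-2.35 ± 0.11), Tmem160, a mitochondrial protein (2.78 ± 0.15), Cadm4, an adhesion molecule (2.48 ± 0.14), Dmpk, a protein kinase (1.25 ± 0.10), Selenow, a selenoprotein (1.12 ± 0.079), and Plaur, the urokinase receptor (-1.17 ± 0.056). Cadm4 passed the filter on low values through the E3 libraries alone, so its direction was set in advance.

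**Figure D1:**
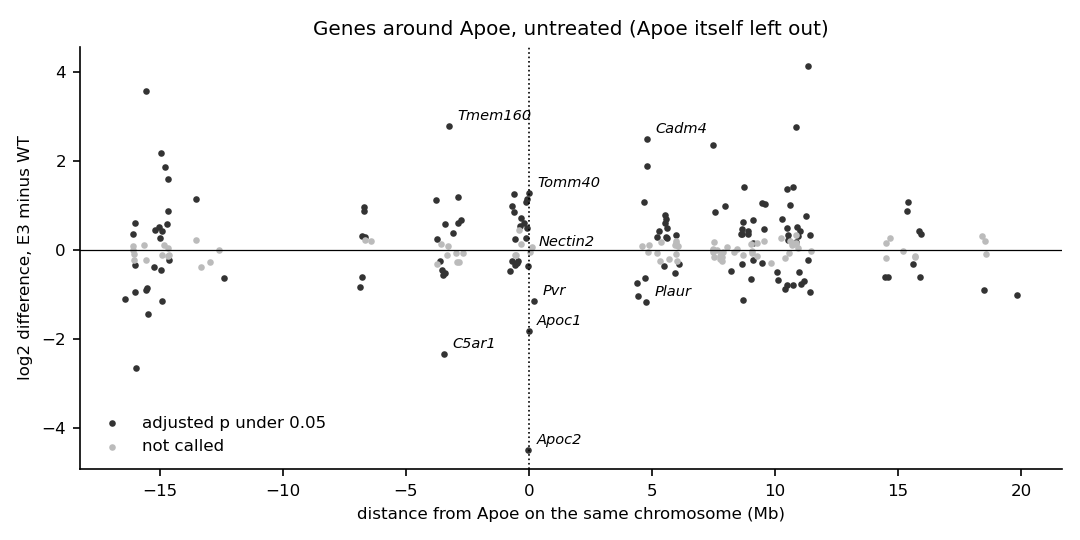
Log2 difference E3 minus WT of the tested genes within 20 Mb of Apoe on chromosome 7, by distance in Mb (negative is towards the start of the chromosome), with genes at an adjusted p under 0.05 in dark grey and Apoe left out for scale. Apoc2 is the lowest point, genes both above and below 0 lie close to Apoe, and Nectin2 sits near 0.

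Over the whole genome the difference between E3 and WT cells was broad and mostly shallow. Of 9677 genes tested, 2343 rose and 3682 fell, which together is 62.3%, while 907 (9.37%) changed at least 2-fold, 563 (5.82%) upward and 344 (3.55%) downward. In 50.2% of genes the groups did not overlap, with E3 above in 18.5% and below in 31.7%. The balance of rises and falls depended on the scaling: with the coding total alone, 2895 rose and 2876 fell, and the median of all genes was -0.0076, against -0.10 with the trimmed mean. Apoe is itself part of the coding total, at a mean of 58894 scaled TPM in WT and 103 in E3 libraries. Its part in this shift was not tested. With all 47 libraries in 1 unweighted fit, 3453 genes passed. The differences also followed the base composition of the transcript, with a median of -0.31 in the 2420 genes with the lowest GC content, -0.19 and -0.04 in the groups of 2420 and 2418 genes above them and 0.13 in the 2419 genes with the highest. With GC content and length corrected, 2163 rose (22.4%), 3764 fell (38.9%), together 61.2%, and 763 (7.88%) changed at least 2-fold, so that the count of calls was about as large; how far GC content bears on any one gene was not tested beyond this fit.

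The largest rises were in genes that were low in WT cells. Of those below, Ttr, Slc38a3, Ttyh1, Fmod, Npvf and Pcdhgc4 passed the filter through the E3 libraries alone, which set their direction in advance. Wisp2, at 3.70, 6.0, 4.83, 6.035 and 4.45 scaled TPM in WT libraries, also needed E3 libraries to pass. Mt3, a metallothionein of brain cells, had 1381, 1238, 1045 and 1039 scaled TPM in E3 libraries, against 37.8, 55.7, 53.5, 30.9 and 42.8 in WT libraries (4.73 ± 0.15, limma adjusted p = 1.49e-10). All 4 E3 libraries were far above all 5 WT libraries. Igfbp2, which binds insulin-like growth factors, had 367, 348, 239 and 302 scaled TPM in E3 libraries, against 13.5, 14.4, 13.8, 7.83 and 9.06 in WT libraries, again with wide separation (4.65 ± 0.18). Ttr, the carrier of thyroxine and retinol that the choroid plexus makes in quantity, had 32.7, 152, 109 and 92.0 scaled TPM in E3 libraries, against 2.07, 0.217, 0, 4.25 and 0.0854 in WT libraries. The E3 libraries differed among themselves by several-fold but all lay above the WT libraries (5.53 ± 0.51). Mlc1, a membrane protein of astrocyte endfeet, had 102, 80.0, 97.9 and 84.8 scaled TPM in E3 libraries, against 5.63, 7.89, 6.64, 5.86 and 4.95 in WT libraries (3.69 ± 0.12). Slc38a3, a glutamine transporter (3.98 ± 0.12), Ttyh1, an anion channel (3.56 ± 0.15), Fxyd1, a regulator of the sodium pump (4.12 ± 0.28), Fmod, a matrix proteoglycan (3.73 ± 0.12), and Wisp2, a matricellular protein (4.20 ± 0.12), rose with them. Npvf, a neuropeptide precursor (4.48 ± 0.15), Elobl (3.61 ± 0.30) and Pcdhgc4, a protocadherin (3.58 ± 0.18), completed the 12 largest rises with a mean of at least 20 scaled TPM.

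The largest falls, next to Apoe and Apoc2, included secreted proteins of the matrix, growth factors and receptors. Mmp3, stromelysin, which cleaves matrix and activates other proteases, had 20.7, 14.6, 16.4 and 19.5 scaled TPM in E3 libraries, against 516, 433, 435, 533 and 378 in WT libraries. The E3 libraries did not come near the WT libraries (-4.61 ± 0.12, limma adjusted p = 1.96e-11). Igf2, an insulin-like growth factor, had 6.15, 8.75, 8.57 and 4.63 scaled TPM in E3 libraries, against 105, 94.4, 95.0, 79.7 and 81.6 in WT libraries, with every E3 library below every WT library (-3.55 ± 0.15). Serpinb2, an inhibitor of plasminogen activators, had 12.99, 7.71, 8.48 and 9.51 scaled TPM in E3 libraries, against 131, 108, 109, 106 and 104 in WT libraries (-3.42 ± 0.13). Ccr1, a receptor for inflammatory chemokines, had 0.890, 1.01, 1.42 and 1.34 scaled TPM in E3 libraries, against 21.6, 17.4, 22.7, 19.2 and 25.1 in WT libraries, so that it was barely detected in E3 cells (-3.35 ± 0.13). Pirb, an inhibitory receptor for MHC class I, had 15.8, 20.1, 18.5 and 18.3 scaled TPM in E3 libraries, against 108, 118, 118, 139 and 118 in WT libraries (-2.66 ± 0.089), and Ms4a4a, a membrane protein of macrophages, had 17.1, 26.4, 22.5 and 18.9 scaled TPM in E3 libraries, against 103, 139, 134, 142 and 149 in WT libraries (-2.60 ± 0.13). Dcn, the matrix proteoglycan decorin (-3.43 ± 0.16), Apod, a lipid-binding lipocalin (-2.79 ± 0.14), Akr1c18, a steroid reductase (-2.62 ± 0.15), and Mrc1, the mannose receptor (-2.58 ± 0.10), were the others among the 12 largest falls.

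**Figure D2:**
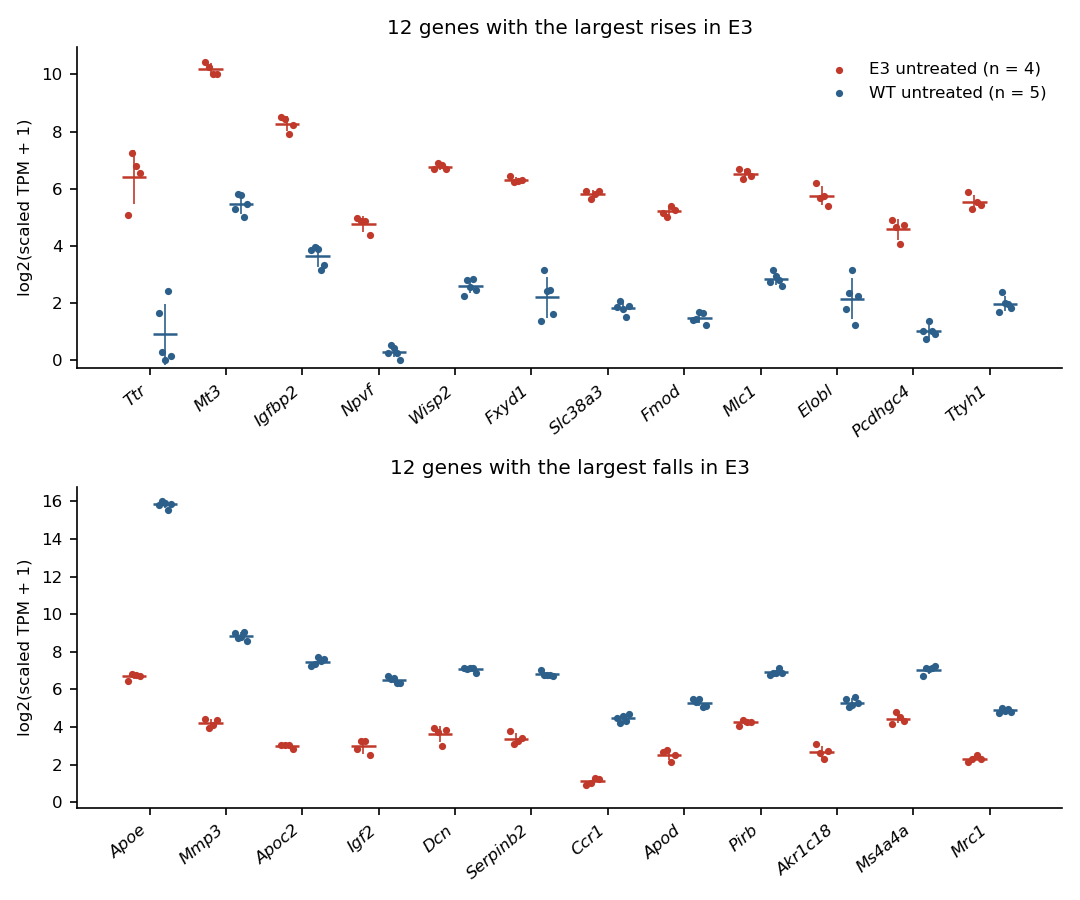
Level of the 12 genes with the largest rises (top) and the 12 with the largest falls (bottom) in each library, on the log2(scaled TPM + 1) scale, with E3 in red at the left and WT in blue at the right of each gene; the horizontal bar is the mean and the vertical line the SD. The groups do not overlap in any of the 24 genes, which the rule for choosing them required.

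The cultures bore the marks of microglia in both groups, along with transcripts of other brain cells. The summed level of 18 microglial markers was 17118 to 20802 scaled TPM in E3 libraries and 18869 to 22593 in WT libraries, and the ranges overlapped. Tyrobp, the signalling adaptor of microglial receptors, had 5328 to 6340 in E3 and 4640 to 5883 in WT libraries. Its log2 difference was 0.12 and did not pass, but it was -0.27 and passed with GC content and length corrected. P2ry12, the purine receptor that marks resting microglia in the brain, was low in both groups, at 4.20 ± 0.722 scaled TPM in E3 and 7.68 ± 1.65 in WT libraries, and fell (-0.73 ± 0.15), while the markers Sall1 and Siglech stayed under the filter on low values. Of the 16 markers tested, 2 rose and 7 fell, and the largest fall was that of Itgam, the integrin chain CD11b, with 84.9 ± 13.02 scaled TPM in E3 and 245 ± 25.8 in WT libraries (-1.52 ± 0.10). Among all genes tested 24.2% rose and 38% fell. In the corrected fit 2 of these markers rose and 11 fell. In bulk RNA, fewer cells of a type and less RNA per cell cannot be told apart.

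Astrocyte transcripts stood out among those of other cells. The summed level of 12 astrocyte markers was 1018 to 1197 scaled TPM in E3 libraries and 146 to 175 in WT libraries. Of 8 tested, 7 rose, against 24.2% rising and 38% falling among all genes. Gja1, the gap junction protein connexin 43, fell (-0.54 on the log2 scale) and is named after its value was seen. Gfap, the intermediate filament of astrocytes, had 391, 323, 394 and 398 scaled TPM in E3 libraries, against 34.5, 39.1, 40.9, 40.3 and 32.1 in WT libraries (3.30 ± 0.090, limma adjusted p = 3.12e-11). Every E3 library was several times above every WT library, and the same held for the glutamate transporter Slc1a3 (3.55 ± 0.14), the water channel Aqp4 (3.47 ± 0.13), clusterin, encoded by Clu (3.29 ± 0.089), and the folate enzyme Aldh1l1 (2.84 ± 0.13). Neuronal markers summed to 79.6 to 87.2 in E3 and 21.0 to 27.9 in WT libraries, and all 3 tested rose: Stmn2 (2.55 ± 0.13), Gap43 (1.41 ± 0.11) and Tubb3 (1.39 ± 0.10). Stmn2 passed the filter on low values through the E3 libraries alone, so its direction was set in advance. Snap25, Syt1 and Rbfox3, which mark mature neurons, were under the filter in both groups. Map2, another neuronal marker under the filter and named after its value was seen, had 5.65 ± 0.996 scaled TPM in E3 and 1.86 ± 0.913 in WT libraries. Oligodendrocyte lineage markers summed to 111.3 to 121.2 in E3 and 90.1 to 108.6 in WT libraries, without overlap, and of 4 tested 2 rose and 1 fell. Among them the transcription factor Olig1 rose (3.09 ± 0.14) and myelin basic protein, Mbp, fell (-0.51 ± 0.12), while Mog was under the filter. The part of these cells in the rises described above was not tested.

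Markers of stromal cells and of other macrophages went the other way. Of 11 tested fibroblast and pericyte markers, 0 rose and 8 fell, against 24.2% rising and 38% falling among all genes. Lowest were Dcn, Col3a1, a fibrillar collagen (-1.19 ± 0.22), Postn, a matrix protein (-1.15 ± 0.12), and Pdgfrb, the PDGF receptor of pericytes (-0.99 ± 0.14). The summed level still overlapped, at 2625 to 3294 scaled TPM in E3 and 2954 to 3594 in WT libraries, and its most abundant members, the smooth muscle genes Acta2 (0.17 ± 0.077) and Tagln (-0.19 ± 0.083), did not pass the test. All 5 tested markers of border macrophages and monocytes fell, and their sum was 1184 to 1481 in E3 and 1843 to 2360 in WT libraries. Mrc1 had 3.38, 3.97, 4.71 and 3.85 scaled TPM in E3 libraries, against 26.4, 31.3, 28.3, 30.6 and 27.1 in WT libraries, with no overlap. F13a1, the A chain of coagulation factor XIII (-2.23 ± 0.14), and Pf4, platelet factor 4 (-1.25 ± 0.13), fell with it. Mrc1 and F13a1 passed the filter on low values through the WT libraries alone, so their direction was set in advance. Endothelial markers summed to 40.4 to 44.1 in E3 and 45.4 to 50.9 in WT libraries, and the neutrophil marker S100a9 was listed at 0 in all 9 libraries.

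**Figure D3:**
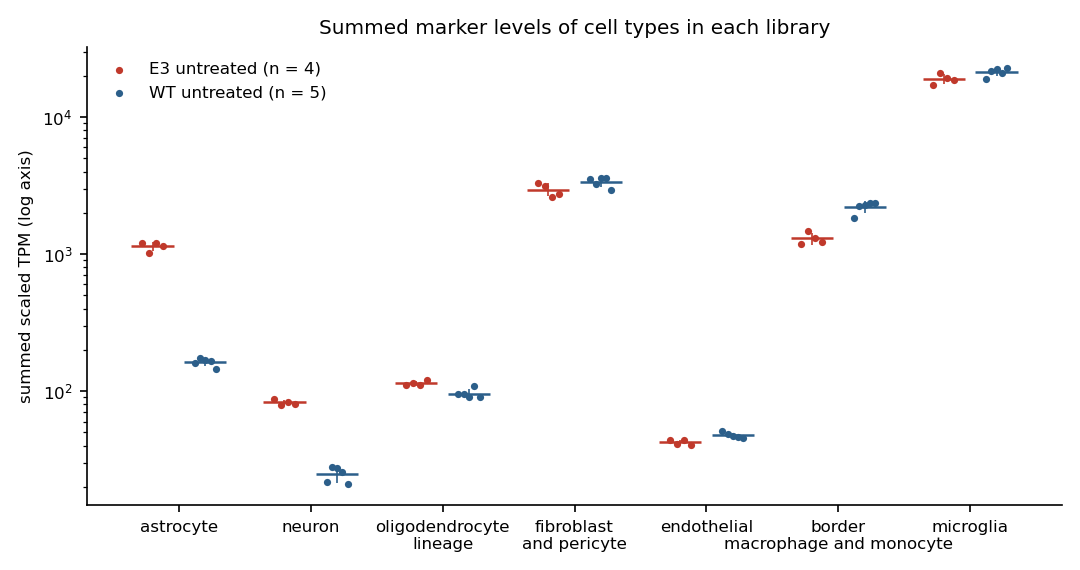
Summed scaled TPM of the markers of each cell type in each library, on a log axis, with E3 in red at the left and WT in blue at the right; the horizontal bar is the mean and the vertical line the SD. Astrocyte, neuron and oligodendrocyte lineage sums are higher in E3 without overlap, border macrophage and endothelial sums are lower without overlap, and the fibroblast and microglia sums overlap.

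Genes of the resting microglial state were mixed. Of 21 tested, 4 rose, 9 fell and 8 did not pass, with a median of -0.23 against -0.10 for all genes, of which 24.2% rose and 38% fell. Csf1r, the receptor for the growth factors that keep microglia alive, had 371, 444, 471 and 486 scaled TPM in E3 libraries, against 855, 823, 756, 1022 and 854 in WT libraries. Its E3 libraries all lay below its WT libraries (-0.96 ± 0.10, limma adjusted p = 2.86e-06). Entpd1, the ATP-cleaving enzyme CD39 (-1.07 ± 0.10), Il10ra, the interleukin 10 receptor (-1.04 ± 0.10), and Tgfbr1, a TGF-beta receptor (-0.80 ± 0.11), also fell, and Rhob, a small GTPase, rose (0.93 ± 0.11). Cx3cr1, the fractalkine receptor, had overlapping libraries and did not pass (-0.12 ± 0.088). Of 27 genes of the disease-associated state, 9 rose, 10 fell and 8 did not pass; the median of -0.053 turned to 0.065 with the coding total alone. Cst7, an inhibitor of cathepsins, had 30.4 ± 2.50 scaled TPM in E3 and 14.1 ± 1.88 in WT libraries and rose (1.06 ± 0.10), as did Ank, a pyrophosphate transporter (1.01 ± 0.091), while Itgax, the integrin chain CD11c (-1.66 ± 0.14), and the chemokine Ccl6 (-2.18 ± 0.12) fell. Itgax passed the filter on low values through the WT libraries alone, so its direction was set in advance. Clec7a, a receptor of the same state that was left out of the tests because the table does not class it as coding, had 90.7 ± 12.1 scaled TPM in E3 and 177 ± 20.7 in WT libraries (SD, n = 4 and 5).

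Most cytokine genes were lower in E3 cells. Of 23 cytokines and NF-kB targets tested, 1 rose, 17 fell and 5 did not pass, with a median of -0.62, against 24.2% rising and 38% falling among all genes. Il1b, the main secreted interleukin 1, had 184, 275, 231 and 231 scaled TPM in E3 libraries, against 632, 828, 894, 1052 and 874 in WT libraries. The groups did not overlap, and the log2 difference was -1.89 ± 0.13 (limma adjusted p = 1.45e-07). Il1a, its sister cytokine, fell more (-2.46 ± 0.13), and Il1rn, their soluble antagonist, fell as well (-1.49 ± 0.13). Il6 had 0.653, 2.14, 1.35 and 2.30 scaled TPM in E3 libraries, against 16.7, 16.9, 16.2, 17.7 and 13.6 in WT libraries, so that it was close to 0 in E3 cells (-2.77 ± 0.18). Il1a and Il6 passed the filter on low values through the WT libraries alone, so their direction was set in advance. Ptgs2, the inducible cyclooxygenase, fell (-2.21 ± 0.10). Nfkb1, the precursor of the p50 subunit (0.041 ± 0.10), and Il18 (-0.17 ± 0.10) did not pass.

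Receptors for microbes, complement and antibody were lower in the same way. Of 22 Toll-like receptors and adaptors, 2 rose and 19 fell, with a median of -0.71, against 24.2% rising and 38% falling among all genes. Tlr4, the receptor for bacterial lipopolysaccharide, had 8.24, 8.43, 10.4 and 9.47 scaled TPM in E3 libraries, against 26.9, 27.3, 27.5, 31.5 and 33.5 in WT libraries, with no overlap (-1.58 ± 0.10). Tlr8 (-1.37 ± 0.10), Tlr1 (-1.25 ± 0.16) and Tlr13 (-1.06 ± 0.10), which bind microbial RNA or lipopeptide, and the adaptor Ticam2 (-1.07 ± 0.12) followed, and Ly86, an accessory protein of a related receptor, did not pass (-0.24 ± 0.10). Of 17 complement genes, 15 fell and 2 rose, with a median of -0.70; the other 8 of 25 listed genes were not tested. Among those untested were C1ra, C1s1 and C4b, named after their values were seen, of the classical pathway, with 4.04 ± 0.182, 3.36 ± 0.543 and 2.14 ± 0.243 scaled TPM in E3 and 1.96 ± 0.335, 1.01 ± 0.203 and 0.603 ± 0.194 in WT libraries, and with no filter on low values 5 complement genes rose. C5ar1 had 133, 155, 205 and 193 scaled TPM in E3 libraries, against 805, 823, 875, 884 and 944 in WT libraries, every E3 library lying well below every WT library (-2.35 ± 0.11). Cd59a, the membrane inhibitor of the lytic complex, rose (1.77 ± 0.10). C1qa and C1qb, chains of the first complement component, fell less (-0.40 ± 0.087 and -0.33 ± 0.093) and had overlapping libraries. Of 22 phagocytosis and Fc receptor genes, 17 fell and 2 rose (median -0.66). The IgG receptors Fcgr2b (-1.19 ± 0.10), Fcgr3 (-1.02 ± 0.10) and Fcgr4 (-1.28 ± 0.11), the scavenger receptor Msr1 (-1.27 ± 0.092) and the bridging protein Pros1 (-1.14 ± 0.12) were among them, whereas Fcer1g, the shared signalling chain of Fc receptors, did not pass (-0.059 ± 0.086). Of 8 alternative activation genes, 6 fell and 1 rose, including the interleukin 4 receptor Il4ra (-1.60 ± 0.10) and the transglutaminase Tgm2 (-1.20 ± 0.10) among those that fell. The border macrophage sum and Itgam were lower in the same libraries, and their part in these falls was not tested.

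**Figure D4:**
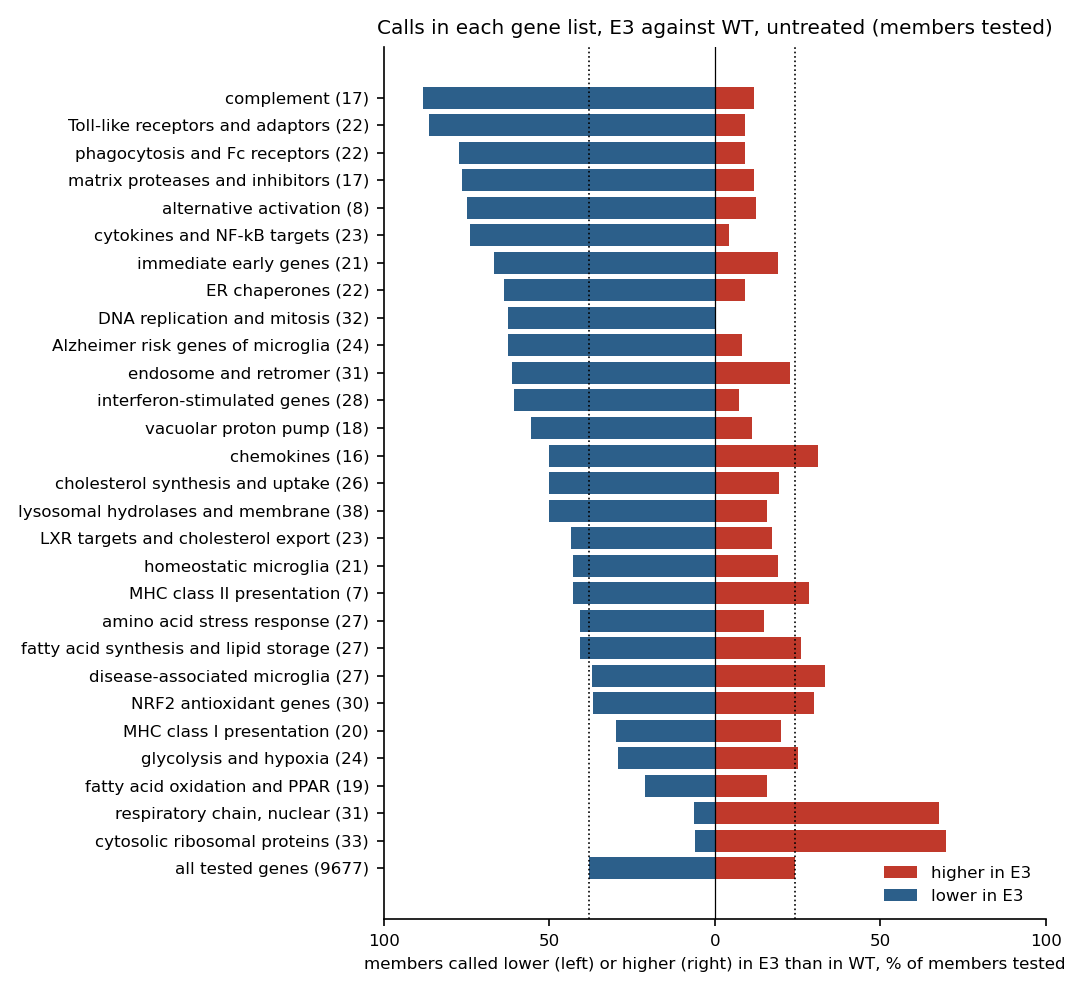
Share of the tested members of each gene list that fell (blue, left) or rose (red, right) in E3 against WT, in percent, for the 28 pathway, state and complex lists and not the cell type markers, with the number tested in brackets; dotted lines mark the shares among all 9677 genes tested, 38% lower and 24.2% higher. Of the lists drawn, complement, Toll-like receptor and Fc receptor lists lie furthest to the left, and the respiratory chain and ribosomal lists lie furthest to the right.

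Of 16 chemokine genes tested, 5 rose, 8 fell and 3 did not pass, and 5 fell without WT replicate 2. Among all genes tested 24.2% rose and 38% fell. Cx3cl1, fractalkine, the ligand through which neurons signal to microglia, had 48.5, 43.4, 55.1 and 47.8 scaled TPM in E3 libraries, against 14.8, 13.2, 11.6, 15.4 and 9.57 in WT libraries and rose (1.85 ± 0.13). Cxcl10, an interferon-induced ligand of T cells, had 27.1, 30.4, 30.4 and 46.99 scaled TPM in E3 libraries, against 5.96, 13.8, 9.13, 10.1 and 8.35 in WT libraries, also without overlap (1.74 ± 0.20). Ccl9, a ligand of Ccr1 in mice, had 118 ± 12.2 scaled TPM in E3 and 394 ± 21.9 in WT libraries and fell (-1.74 ± 0.076). Ccl2 and Ccl3 had overlapping libraries and differences of 0.060 ± 0.12 and -0.20 ± 0.092, which did not pass. Immediate early genes, the first to be transcribed on stimulation, counted 14 falls and 4 rises among 21 tested (median -0.68): Egr2 (-1.67 ± 0.11), Ier2 (-1.47 ± 0.095), Btg2 (-1.41 ± 0.088) and the nuclear receptor Nr4a1 (-1.31 ± 0.11) fell, and Fosb did not pass (0.44 ± 0.18).

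Interferon-stimulated genes were lower in most cases, apart from Cxcl10 and Ifit3. Of 28 tested, 2 rose, 17 fell and 9 did not pass, with a median of -0.50, against 24.2% rising and 38% falling among all genes. Irf7, the transcription factor that amplifies the response, had 15.8, 24.4, 14.3 and 33.1 scaled TPM in E3 libraries, against 61.9, 52.5, 33.2, 42.5 and 33.3 in WT libraries, so that the highest E3 library nearly reached the lowest WT library (-1.03 ± 0.24). Rtp4 (-1.06 ± 0.19), Sp100, a nuclear body protein (-0.98 ± 0.092), and Ddx60, an RNA helicase (-0.92 ± 0.15), fell. The promoters of the group are shown because genes that rose and genes that fell share the same kind of element: interferon-activated factors bind the letters GAAANNGAAA, a repeat of GAAA with 2 bases between, which were sought on both strands in the 250 bases before the start of transcription and are printed in capitals. They were found in 12 of 26 listed genes with a promoter in the table, against 3.46% of all 27025 promoter symbols. The match is a description of the letters, not of binding, and Ifit3 and Stat2 were added after their values were seen. Sequences are 5′ to 3′ along the gene, from RefSeq on GRCm38.p6.
Cxcl10, rose, chr5:92349073-92349122, minus strand: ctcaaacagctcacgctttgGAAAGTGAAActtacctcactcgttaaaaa
Ddx60, fell, chr8:61928014-61928063, plus strand: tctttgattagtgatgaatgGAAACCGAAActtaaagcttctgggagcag
Ifit3, rose, chr19:34583353-34583402, plus strand: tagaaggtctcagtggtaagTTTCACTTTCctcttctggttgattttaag
Stat2, fell, chr10:128270256-128270305, plus strand: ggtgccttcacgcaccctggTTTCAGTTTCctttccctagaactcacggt
Ifit3, a protein of the interferon response, and Stat2, a subunit of the interferon-activated factor, carry the element on the opposite strand, so that it reads as its reverse complement. Ifit3 rose by 0.80 ± 0.26 with overlapping libraries, and Stat2 fell (-0.69 ± 0.15).

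Matrix proteases and their inhibitors held several of the steepest falls. Of 17 tested, 2 rose, 13 fell and 2 did not pass (median -0.87), against 24.2% rising and 38% falling among all genes. Timp1, an inhibitor of metalloproteinases, had 1250, 1222, 833 and 1153 scaled TPM in E3 libraries, against 3909, 3639, 4057, 3475 and 3066 in WT libraries, with no overlap (-1.71 ± 0.12, limma adjusted p = 9.98e-08). Mmp13, a collagenase, had 5.99, 5.26, 5.79 and 9.90 scaled TPM in E3 libraries, against 31.8, 28.5, 30.4, 37.4 and 32.1 in WT libraries (-2.13 ± 0.15). Plaur had 112, 114, 119.7 and 119 scaled TPM in E3 libraries, against 272, 257, 273, 259 and 254 in WT libraries, with no overlap (-1.17 ± 0.056, chromosome 7), while its ligand, the urokinase gene Plau, did not pass (-0.17 ± 0.15). The AP-1 transcription factors are known to drive several such genes. The letters sought for them were TGANTCA, a broad form of their element in which N is any base. These letters occur in the 250 bases before the start of 5 of 14 listed genes with a promoter in the table, against 7.82% of all 27025 promoter symbols. The stretches around the element, in capitals, are given for the members with the element that fell most, again along the gene and from RefSeq on GRCm38.p6, and the letters read alike on both strands.
Mmp3, fell, chr9:7445756-7445802, plus strand: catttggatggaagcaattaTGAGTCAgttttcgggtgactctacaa
Serpinb2, fell, chr1:107511309-107511355, plus strand: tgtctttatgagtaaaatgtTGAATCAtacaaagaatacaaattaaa
Mmp13, fell, chr9:7272459-7272505, plus strand: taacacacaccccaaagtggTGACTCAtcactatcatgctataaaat
Plaur, fell, chr7:24462394-24462440, plus strand: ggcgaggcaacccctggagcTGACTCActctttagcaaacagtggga
Whether any factor was bound there was not measured.

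Cholesterol genes moved in both directions. Of 26 synthesis and uptake genes tested, 5 rose, 13 fell and 8 did not pass, against 38% falling and 24.2% rising among all genes, and none changed 2-fold (median -0.23). Idi1 (-0.82 ± 0.087) and Cyp51 (-0.67 ± 0.094), enzymes of the pathway, and Stard4, a sterol carrier (-0.76 ± 0.14), fell, and Fdps, the farnesyl diphosphate synthase, did not pass (0.050 ± 0.064). Among 23 LXR targets and export genes, 4 rose and 10 fell (median -0.12), and with the coding total alone 6 rose and 7 fell. The falls included Apoc2 and Apoc1, the neighbours of Apoe described above. Abca1, the transporter that loads cholesterol onto apolipoprotein E, had 30.2, 36.8, 37.5 and 33.5 scaled TPM in E3 libraries, against 86.3, 79.4, 61.8, 96.1 and 85.1 in WT libraries, all E3 libraries being lower (-1.21 ± 0.11). Lcat, which esterifies cholesterol on lipoproteins and is made by astrocytes in the brain, had 23.1 ± 1.18 scaled TPM in E3 and 1.37 ± 0.595 in WT libraries and rose (3.38 ± 0.17), and Lpl, lipoprotein lipase, had overlapping libraries (-0.19 ± 0.12).

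Fatty acid genes moved in both directions. Of 27 synthesis and storage genes, 7 rose and 11 fell, shares close to the 24.2% and 38% among all genes. The median of this list, -0.064, turned to 0.032 with the coding total alone. Fads2, a desaturase of polyunsaturated fatty acids, had 121, 106, 125.5 and 111 scaled TPM in E3 libraries, against 27.5, 31.3, 33.3, 28.9 and 27.5 in WT libraries, well apart (1.93 ± 0.081). Scd1, the stearoyl desaturase (1.27 ± 0.11), rose, and Acsl4, an acyl-CoA synthetase for arachidonate (-1.33 ± 0.10), and Cd36, a fatty acid and lipoprotein receptor (-0.92 ± 0.12), fell. Of 19 oxidation genes, 3 rose and 4 fell (2 fell without WT replicate 5 or E3 replicate 1, and 1 with the coding total alone), among them Angptl4, the secreted inhibitor of lipoprotein lipase, which fell (-1.33 ± 0.081), and the median of 0.051 turned to -0.066 in the corrected fit.

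Endosomes, lysosomes and their proton pump were lower in part. Of 38 lysosomal genes, all tested, 6 rose, 19 fell and 13 did not pass (median -0.19), against 24.2% rising and 38% falling among all genes. Ctsc, the dipeptidyl peptidase cathepsin C, had 206, 222, 273 and 231 scaled TPM in E3 libraries, against 734, 770.1, 788, 819 and 817 in WT libraries, with no overlap (-1.76 ± 0.078, limma adjusted p = 1.66e-09). Ctsl, cathepsin L (-1.12 ± 0.083), Ctsk, cathepsin K (-1.15 ± 0.087), and Asah1, acid ceramidase (-0.96 ± 0.10), also fell, and Naglu, which degrades heparan sulfate, rose (1.18 ± 0.19). Cd63, an abundant membrane protein of late endosomes, did not pass (-0.10 ± 0.077). Of 18 subunits and partners of the proton pump, 10 fell and 2 rose. Atp6v0d2, a subunit found in macrophages and osteoclasts, had 5.51, 5.03, 7.23 and 6.04 scaled TPM in E3 libraries, against 25.1, 26.7, 29.9, 24.9 and 30.9 in WT libraries, with no overlap (-2.04 ± 0.11), and the catalytic subunit Atp6v1a fell less (-0.66 ± 0.089). Of 31 endosome and retromer entries, 19 fell and 7 rose (median -0.36), among them the retromer subunits Vps35 (-0.78 ± 0.10) and Vps26a (-0.79 ± 0.085), the sorting nexin Snx2 (-0.91 ± 0.066) and the ESCRT ATPase Vps4b (-1.10 ± 0.14), all lower.

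Most respiratory chain and ribosomal protein genes rose, by small amounts. Of 31 nuclear genes of the respiratory chain, 21 rose and 2 fell, none by 2-fold (median 0.25), against 24.2% rising and 38% falling among all genes. With GC content and length corrected, 12 rose and 3 fell. Uqcrfs1, the Rieske iron-sulfur protein (0.76 ± 0.15), Cox6c (0.48 ± 0.071) and Cox5b (0.45 ± 0.071), subunits of the terminal oxidase, rose, and Ndufs1, the largest subunit of the first complex, fell (-0.46 ± 0.072). Of 33 ribosomal protein genes, 23 rose and 2 fell (median 0.25), but with GC content and length corrected 5 rose, 8 fell and the median was -0.045, so that the direction of this list turned with the correction. Rps9, on chromosome 7 like Apoe, was among the genes that fell, in both fits. It had 673, 689, 622 and 552 scaled TPM in E3 libraries, against 1146, 1287, 1307, 1163 and 1224 in WT libraries, every E3 library lying well below every WT library (-0.95 ± 0.075, and -1.18 ± 0.059 corrected).

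Antioxidant genes moved in both directions. Among 30 NRF2 antioxidant genes, 9 rose and 11 fell, against 24.2% rising and 38% falling among all genes. Their median of 0.046 turned to -0.19 in the corrected fit. Gstm1, a glutathione transferase, had 419, 443, 411 and 424 scaled TPM in E3 libraries, against 101.1, 119, 121, 120.4 and 114 in WT libraries (1.88 ± 0.066). Prdx6, a peroxiredoxin (1.18 ± 0.074), and Gclm, a subunit of the glutathione-synthesizing ligase (0.83 ± 0.12), rose, whereas the cystine transporter Slc7a11 (-1.53 ± 0.14) and the quinone reductase Nqo1 (-1.17 ± 0.13) fell, and Hmox1, heme oxygenase, did not pass (0.054 ± 0.072). Of 22 ER chaperone genes, 14 fell and 2 rose (median -0.36), the sensor Atf6 (-0.81 ± 0.10) and the calnexin gene Canx (-0.74 ± 0.069) among those that fell. Of 27 amino acid stress genes, 11 fell and 4 rose (2 rose without E3 replicate 1), and the factor Atf4, which drives the response, did not pass (-0.021 ± 0.060). Of 24 glycolysis and hypoxia genes, 7 fell and 6 rose; the median of -0.005 turned to 0.084 with the coding total alone. Hif1a, the oxygen-regulated factor, fell (-1.004 ± 0.14), and the abundant enzyme Aldoa did not pass (0.10 ± 0.063). Of 32 DNA replication and mitosis genes, 0 rose, 20 fell and 12 did not pass (median -0.30). The mitotic kinase gene Bub1 had 4.51, 3.77, 4.23 and 4.16 scaled TPM in E3 libraries, against 7.81, 11.1, 12.4, 9.92 and 8.70 in WT libraries, low but apart (-1.07 ± 0.13). Mcm4, of the replicative helicase, fell (-0.89 ± 0.12), and Pcna, the sliding clamp of DNA polymerase, did not pass (0.026 ± 0.064).

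Many antigen presentation genes did not pass the test. Of 20 class I genes, 4 rose, 6 fell and 10 did not pass, with a median of 0.053 that turned to -0.14 in the corrected fit, and the classical gene H2-K1 had overlapping libraries (0.054 ± 0.10). Among all genes tested 24.2% rose and 38% fell. The count of class I rises was 1 without WT replicate 1 or E3 replicate 2, 2 without WT replicate 4 or 5 or E3 replicate 1 or 4, and 1 in the corrected fit. Of 15 listed class II genes, 7 were tested, of which 2 rose and 3 fell. H2-Ab1, a class II chain, had 7.03 ± 0.7099 scaled TPM in E3 and 2.02 ± 0.889 in WT libraries and rose (1.46 ± 0.20). The costimulators Cd80 (-1.42 ± 0.12) and Cd86 (-0.78 ± 0.13) fell, and Cd74, the invariant chain, did not pass (-0.12 ± 0.10). Among untested members, named after their values were seen, H2-Aa, H2-Eb1 and Ciita had higher means in E3, and H2-DMb2 and Ifi30 lower ones. H2-Aa had 2.57 ± 0.790 scaled TPM in E3 and 0.618 ± 0.338 in WT libraries. For H2-DMb2 these were 3.45 ± 2.46 and 5.06 ± 1.72. Across the alternatives, class II rises ran from 1 to 5 and falls from 2 to 5. Of 24 genes near which Alzheimer disease risk variants lie and which microglia express, 15 fell and 2 rose (median -0.42). Ms4a6d, a membrane protein of macrophages, had 186, 206, 228 and 225 scaled TPM in E3 libraries, against 444, 470.5, 498, 452 and 497 in WT libraries, without overlap (-1.16 ± 0.072). Adam10, a protease that sheds membrane receptors (-1.05 ± 0.10), and Sppl2a, an intramembrane protease (-1.02 ± 0.081), fell, and Spi1, the factor PU.1, did not pass (-0.15 ± 0.10).

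Genes at which C57BL/6 substrains are known to differ were looked at because the mice came from different breeders. Nnt, the mitochondrial transhydrogenase disrupted in the Jackson substrain, is listed under a pair of overlapping gene identifiers between which reads can be split, so its level is uncertain: the first fell (-1.08 ± 0.33, with overlapping libraries; limma adjusted p = 0.0126, and 0.0524 with no filter on low values) and the second had 9.14 ± 0.491 scaled TPM in E3 and 9.71 ± 2.51 in WT libraries (SD, n = 4 and 5). Wdfy1, an endosomal adaptor, had 32.1, 29.7, 35.8 and 35.9 scaled TPM in E3 libraries, against 18.4, 16.8, 15.5, 20.6 and 21.3 in WT libraries. It was higher in every E3 library (0.82 ± 0.11, limma adjusted p = 2.57e-05). Cyfip2, a regulator of actin, rose (0.73 ± 0.12), Ide, the insulin-degrading enzyme, fell (-1.28 ± 0.14), and Entpd4 did not pass (-0.094 ± 0.10). Sex-linked genes were present from both sexes in both groups: Ddx3y, on the Y chromosome, had 7.81 ± 1.76 scaled TPM in E3 and 16.4 ± 0.915 in WT libraries, and Xist, the RNA of the inactive X chromosome, had 4.61 ± 0.679 scaled TPM in E3 and 7.34 ± 0.548 in WT libraries, both lower in E3 (-1.003 ± 0.13 and -0.58 ± 0.11).

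The same genotypes after myelin gave a separate set of libraries, 4 of E3 and 5 of WT, treated for 3 h and collected at 24 h. Of 10115 genes tested there, 3324 (32.9%) differed between E3 and WT, 1425 (14.1%) higher and 1899 (18.8%) lower. Of the genes called in untreated cells, 43.3% were called in the same direction after myelin, and of the genes called after myelin and tested in both, 82.4% were called in the same direction untreated. Of 907 genes with at least a 2-fold difference untreated, 903 had the same sign after myelin and 757 (83.5%) passed the test there. Among all genes called untreated, 89.8% had the same sign after myelin. Mt3 was higher by 4.12 ± 0.27 after myelin, Gfap by 3.37 ± 0.10, and Mmp3 (-4.93 ± 0.15) and Ccr1 (-2.94 ± 0.14) were lower. Several lists gave other counts after myelin than untreated. The lysosomal list had 17 members higher and 3 lower in E3 than in WT after myelin, against 6 higher and 19 lower untreated. The respiratory chain list had 1 higher and 0 lower after myelin, the interferon list 3 higher and 3 lower, and the replication and mitosis list 0 higher and 27 lower. These counts are not a test of the difference between the conditions. Whether the genotype difference itself changed with myelin was tested with an interaction, which called 238 genes (2.35%); this count was 5 without E3 replicate 1 and 894 without WT myelin replicate 5, so it rests on few libraries. Atp6v0d2 was among them, with E3 minus WT at -0.96 ± 0.14 after myelin and -2.04 ± 0.11 untreated (limma adjusted p of the interaction = 0.0254).

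**Figure D5:**
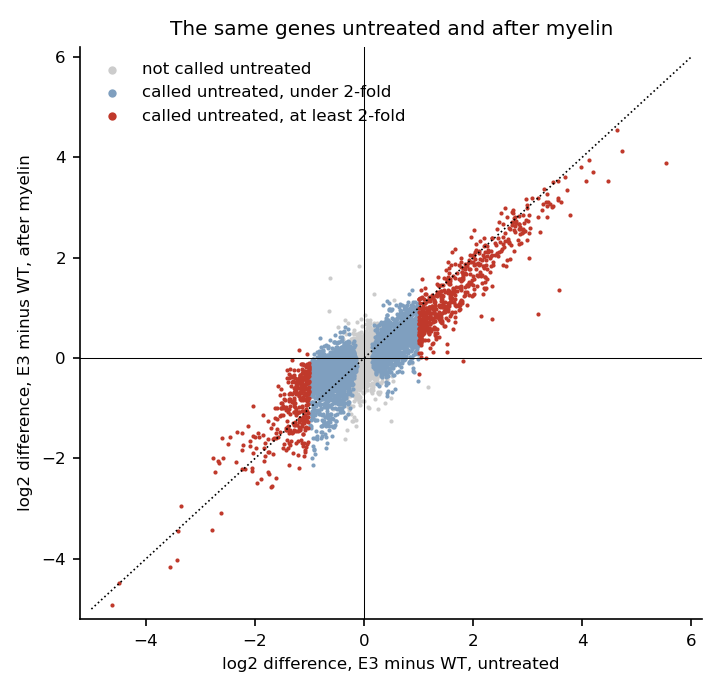
Log2 difference E3 minus WT of each tested gene after myelin (vertical) against untreated (horizontal), with genes called untreated at 2-fold or more in red, other genes called untreated in blue and the rest in grey; the dotted line marks equal differences and Apoe is left out for scale. Of the 907 red genes, Apoe counted, 903 have the same sign on both axes, and the median of those higher in E3 is 1.25 after myelin and 1.57 untreated. These genes were chosen by their untreated difference, a choice that by itself can raise the untreated median.

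Untreated E4 and KO cells place the E3 values. Of 10359 genes tested, 2073 (20%) differed between E3 and E4 and 7147 (69%) between E3 and KO. The comparisons of E4 and KO with WT share the WT libraries with that of E3, so their values are set side by side and not counted as support. Gfap differed from WT by 3.30 in E3, 4.68 in E4 and -0.20 in KO cells, and Mt3 by 4.73, 5.19 and 0.20. Mmp3 differed by -4.61 in E3, -5.30 in E4 and -4.26 in KO cells, and Ccr1 by -3.35, -3.58 and -2.70. The receptor gene Tlr4 differed by -1.58, -1.55 and -0.014.

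Some genes differed between E3 and E4 cells in the direct test. Rps9 was lower in E3 than in E4 (-0.90 ± 0.10, limma adjusted p = 1.93e-06), E4 minus WT being -0.057. Wdfy1 was higher in E3 than in E4 by 1.33 ± 0.13 (limma adjusted p = 5.15e-07), where E4 minus WT was -0.51. Pirb (-1.01 ± 0.11), Il1b (-1.33 ± 0.15) and Nr4a1 (-1.16 ± 0.12) were lower in E3 than in E4 (limma adjusted p = 1.65e-06, 1.93e-06 and 8.73e-07). Plaur went the other way, higher in E3 than in E4 by 0.80 ± 0.063 (limma adjusted p = 5.13e-08). Igfbp2 and Atp6v0d2 did not pass between E3 and E4, with differences of 0.093 ± 0.22 and -0.056 ± 0.12.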

How the data were processed

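The authors deposited 1 table of TPM values per gene for 47 libraries; per the submitters' processing notes, Salmon 0.13.1 and limma 3.40.6 were used, with the build mm10. TPM keeps no read depth, so the counting precision behind each value cannot be given. Each library was rescaled to 1000000 over protein-coding genes without mitochondrially encoded ones, then by a trimmed mean of log ratios (30% of ratios and 5% of levels trimmed). Protein-coding and lincRNA genes at 5 scaled TPM or more in at least 4 of the 9 libraries were tested with limma 3.58.1 (R 4.3.3, trend, two-sided) on log2(scaled TPM + 1), with Benjamini-Hochberg adjustment over all of them and a threshold of 0.05. A gene at this level in 1 group alone passed the filter through that group, which set its direction in advance. Named examples were Stmn2, Olig1, H2-Ab1, Lcat and Cadm4 through E3, and Ccr1, Mrc1, Il6, Il1a, Bub1, F13a1 and Itgax through WT. The values after myelin and the interaction came from 18 libraries in 4 group means, and E3 against E4 or KO from 19 untreated libraries. Single values were tested by exact permutation over the 126 divisions of the libraries.

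The text names the 12 largest changes in each direction without overlap and with a mean of at least 20 scaled TPM, up to 5 called and 3 uncalled members of each list, and called genes near Apoe; genes outside this rule are marked. Members and gene lists were chosen with earlier results of these data known. Positions, GC content and length come from GENCODE vM21. Alternatives covered scaling, pseudocount, filter, library weights, the libraries in the fit, single libraries left out and a correction for GC content and length. Replicate numbers were not used to pair the libraries in the main fits. Some members of the lists are not reported here by name.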

Additional observations from a re-analysis of the deposited data

Results flagged for a closer look

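Single libraries stood apart from the rest of their group in 6 of 86 groups examined by Dixon's criterion, which chance flags in about 1 of 20. The summed border macrophage markers were 1843 scaled TPM in WT replicate 1, the lowest of the WT libraries, and Serpinb2 had 131 scaled TPM in the same library. In E3 replicate 4, Apoc2 had 6.25, Cxcl10 had 46.99 and Mmp13 had 9.90 scaled TPM. In E3 replicate 2, Gfap had 323 scaled TPM. No direction given for these genes rests on the library named, since all E3 libraries lie on one side of all WT libraries.

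In 13 genes named in the report the difference between E3 and WT was not the same untreated as after myelin by limma's interaction test at an adjusted p under 0.05. The values are the untreated difference minus the difference after myelin, on the log2 scale. The untreated difference was the more negative in Atp6v0d2 (-1.08), Tlr4 (-1.03), Ms4a4a (-1.01), Abca1 (-0.97), Acsl4 (-0.95), Atp6v1a (-0.90), Ticam2 (-0.90), Il1a (-0.89), Msr1 (-0.87), Ctsl (-0.69) and Sppl2a (-0.69). It was the more positive in Timp1 (0.85) and Fdps (0.56). These calls rest on few libraries: the interaction called 238 genes in all, and 5 without E3 replicate 1.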

How the results depend on the processing

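The difference of Apoe and that of the coding share kept their direction and side of the threshold in every alternative run, the coding share being -2.34 percentage points with the highest gene of each library left out. The count of 6025 changed genes became 3453 with all 47 libraries unweighted and ran from 5164 to 5934 with single libraries left out; without an E3 library, 3 remain, so a gene expressed only in E3 cannot pass the filter. The count of 2-fold changes, 907, became 518 with a pseudocount of 5 and ran from 634 to 971 with single libraries left out. The replicate number as a block gave 5627 changed genes, and same-numbered E3 and WT libraries correlated at 0.24, 0.11, -0.10 and 0.07, with 3 of 4 E3 libraries closest to their own number; this is a hint from the data, not the design.

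The interaction count of 238 was the least stable. It became 73 with the coding total alone, 5 with no filter, 928 with library weights, 453 with GC content and length corrected and 811 with the replicate block. It ran from 5 without E3 replicate 1 to 894 without WT myelin replicate 5; it was 8 without E3 replicate 4, E3 myelin replicate 3 or WT replicate 5, 12 without WT myelin replicate 1, 17 and 30 without WT replicates 2 and 4, 18 without E3 replicate 2, 59 without WT myelin replicate 3, 105 without WT replicate 3, 122 without E3 myelin replicate 4, 430 without WT myelin replicate 4 and 472 without E3 replicate 3. The cause was not tested.

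Of 145 named genes called untreated, 11 lost the call in some alternative, with the direction kept: Gja1, Col3a1, C1qa, C1qb, Ifit3, Rtp4, Cyp51, Asah1, Cox6c and Ndufs1 with all 47 libraries unweighted (Gja1 and Col3a1 also with 38 libraries, Gja1 also with all 47 weighted), and Ifit3 and the first Nnt identifier with no filter. Another 17 genes gained a call in some alternative. List counts of 2 that became 1 with single libraries left out were the rises among Toll-like receptor, class II, proton pump, ER chaperone and oligodendrocyte genes and the falls among ribosomal genes; ER chaperone rises were 5 without WT replicate 1. Among named genes the sign turned in some that did not pass untreated. With the coding total alone Nectin2 was 0.052, Fcer1g 0.038, Atf4 0.076 and the second Nnt identifier 0.037, and Atf4 was 0.0016 by median of ratios. With GC content and length corrected Tyrobp was -0.27, Lpl 0.077, Hmox1 -0.17, Aldoa -0.22, H2-K1 -0.14 and the second Nnt identifier 0.036. Tyrobp and Aldoa passed the test in that fit. Ccl2 was -0.033 with the replicate block. With single libraries left out, Ccl2 ran from -0.033 to 0.13, Nfkb1 from -0.053 to 0.10, Hmox1 from -0.0047 to 0.098, Pcna from -0.00032 to 0.065 and H2-K1 from -0.045 to 0.12, while the second Nnt identifier ran from -0.12 to 0.071. The cause was not tested.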
